A study of Mus musculus with 10 samples.

Results

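Immediate early genes are switched on within minutes of a stimulus from transcription factors that the cell already holds, without new protein being made. Serum response factor, acting through the CArG box, and CREB, acting through the cyclic AMP response element (CRE), are the best known of these factors. Many of the genes code for transcription factors themselves, and in fat their products act on the choice of progenitors between proliferation and adipocyte differentiation. They are also known to be induced while a tissue is dissociated, and since every sample here was digested, the level in the tissue and the level gained during digestion cannot be told apart. The 10 genes described here were taken by symbol. They are the AP-1 subunits Fos, Fosb, Jun, Junb and Jund, the zinc finger factor Egr1, the orphan nuclear receptor Nr4a1, the nuclear regulator Ier2, the mRNA decay factor Zfp36 (tristetraprolin) and the stress-induced factor Atf3. All 10 were among the 14623 genes of the table.

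The cells were the stromal vascular fraction (SVF) of inguinal white adipose tissue (iWAT), that is, the cells left when adipocytes are removed after digestion with collagenase II and DNase I. They came from a lean Bbs8-/- mouse (Bbs8 KO), which lacks a subunit of the BBSome, the complex that carries membrane proteins out of primary cilia, and from a Bbs8+/+ mouse (Bbs8 WT). The series text names 1 mouse of 7 weeks per genotype, so comparisons between genotypes had no replicate check that the labels support, and no test was run. Transcripts were counted with Seq-Well S3, in which single cells settle into wells with barcoded beads and copies of 1 captured mRNA are recognised by its unique molecular identifier (UMI).

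The table held 8985 Bbs8 KO cells with 3144195 UMIs and 1929 Bbs8 WT cells with 715989 UMIs, at medians of 251 and 278 UMIs per cell. The column names divide the cells of each genotype into 5 barcode sets, with 1635 to 2005 cells per Bbs8 KO set and only 196 to 768 per Bbs8 WT set. These sets could not be matched to single labelled samples. Their names hold a number, 5 or 6 in Bbs8 KO and 3 or 4 in Bbs8 WT, and a code from p1 to p3 that both genotypes share, neither of which the sources explain. The series text speaks of a single mouse per genotype, but whether the number stands for an animal, an array or something else was not stated. The sets of a genotype are therefore not taken as independent samples, and how many animals they represent is not settled. Of all barcodes, 36 occurred in more than 1 set, in 103 cells. Bbs8, listed as Ttc8, had 0 UMIs in Bbs8 KO and 5 UMIs in 3 cells of a single Bbs8 WT set, WT4_p2.

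A property of the table bears on every gene of low level. In each barcode set, 786 to 1327 genes were found in exactly 3 cells, against 307 to 535 found in 2 cells and 55 to 116 found in 1 cell. The counts fall off below 3 cells, as they would if a gene had to be found in 3 cells of a set to be kept there and some cells were removed later, although the sources used here state no such step. The sets of Bbs8 WT were smaller, and 30.9% to 65.4% of all genes were listed at 0 in them, against 15.3% to 20.5% in the Bbs8 KO sets. A 0 in a set is thus given as "listed at 0", since up to 2 cells with the gene may have been set to 0. At 1 UMI per cell these would be 6.58 CPM (the UMIs of a gene per 1000000 UMIs of the cells summed) in the largest Bbs8 WT set and 29.0 CPM in the smallest, but 2.85 to 3.72 CPM in the Bbs8 KO sets. Fos, Jun, Junb, Jund and Egr1 were listed above 0 in all 10 sets. Nr4a1 was listed at 0 in 5 Bbs8 WT sets, Fosb, Ier2 and Atf3 in 2 each, and Zfp36 in 1.

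**Figure D1:**
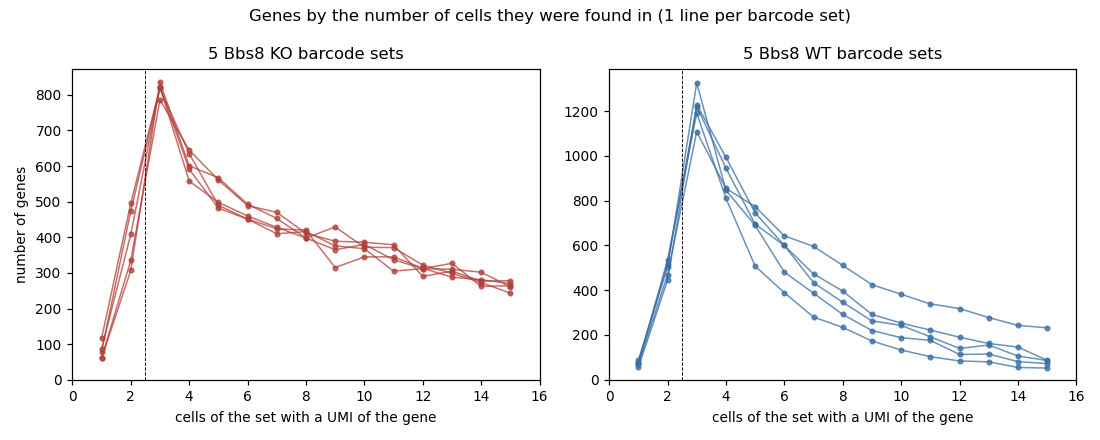
Number of genes (vertical axis) found in a given number of cells (horizontal axis) for each of the 5 Bbs8 KO sets (left) and 5 Bbs8 WT sets (right), 1 line per set, with vertical scales that differ. In every set the count drops from 786 to 1327 genes at 3 cells to 55 to 116 genes at 1 cell, left of the dashed line.

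To show where these genes sit and which known control elements lie before them, their upstream sequences were read from RefSeq (GRCm38.p6, the build named mm10). The table held 8 of the 10 genes, without Egr1 and Ier2. In the 250 bases before each RefSeq start, the CArG box (CC, 6 of A or T, GG), the CRE (TGACGTCA), its short form (TGACG) and the AP-1 element (TGANTCA) were searched on both strands. The short form matches at every full CRE too. Among all 32851 promoters of the table, 1.47% held a CArG box, 1.55% a CRE, 17.8% the short form and 6.75% an AP-1 element. The windows of Fos and Nr4a1 are shown because they held the most matches of the short form among the members, with capitals on each match, where CGTCA is the short form on the minus strand. The Fos window is chr12:85473640-85473889 and the Nr4a1 window chr15:101266596-101266845, both on the plus strand. By the GENCODE gene spans, the windows of Nr4a1, Zfp36 and Atf3 lie inside their genes, since GENCODE also has transcripts that start further upstream. The Jund window ends at 70697738 on chromosome 8, before the GENCODE start of Jund at 70698949.
Fos: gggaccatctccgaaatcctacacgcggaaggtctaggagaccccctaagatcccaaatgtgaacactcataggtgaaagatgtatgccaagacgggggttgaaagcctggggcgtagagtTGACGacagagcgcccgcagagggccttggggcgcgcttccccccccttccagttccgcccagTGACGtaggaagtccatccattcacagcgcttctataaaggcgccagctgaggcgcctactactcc
Nr4a1: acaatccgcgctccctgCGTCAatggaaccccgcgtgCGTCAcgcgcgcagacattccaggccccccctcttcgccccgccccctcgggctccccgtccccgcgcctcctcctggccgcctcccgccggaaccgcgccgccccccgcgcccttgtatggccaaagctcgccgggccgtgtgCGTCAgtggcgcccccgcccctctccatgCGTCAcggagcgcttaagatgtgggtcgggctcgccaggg

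Fos held the short form at bases -129 and -66 from the start, and Nr4a1 held 4 matches on the minus strand, at -233, -213, -69 and -40. Fosb and Junb held 1 match each on the plus strand, at -60 and -106, and Atf3 held 1 on the minus strand at -7. Zfp36 held a CArG box at -58. The windows of Jun and Jund held none of the searched motifs, and no member held a full CRE or an AP-1 element in its window. A match describes letters only and is not a site of binding. Elements outside these windows were not searched, so a gene without a match may hold one further away.

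The summed members were lower in Bbs8 KO cells than in Bbs8 WT cells by a small amount. Over all cells, 2075 UMIs in Bbs8 KO gave 660 CPM, and 569 UMIs in Bbs8 WT gave 795 CPM. The log2 ratio of Bbs8 KO over Bbs8 WT, taken with a pseudocount of 5 CPM as all ratios here, was -0.27 with an exact 95% interval of -0.40 to -0.13. Intervals of ratios belong to the plain ratio and, like the Poisson intervals of levels, cover counting error only. The sums in the Bbs8 KO sets were 641, 644, 674, 656 and 679 CPM, all below the 764, 882, 754, 807 and 742 CPM of the Bbs8 WT sets. Cells named as stromal were 17.6% of Bbs8 KO cells and 34.2% of Bbs8 WT cells. The unnamed cluster 0 held a further 22.3% and 15.7%, and the stromal transcript Col3a1 was found in 83.2% and 93.1% of its cells. When each cell class was given the same weight in both genotypes, the log2 ratio was -0.17 (95% interval -0.32 to -0.03), and -0.04 (-0.19 to 0.11) when the classes were made without integration of the sets. Over the 5 members listed above 0 in all sets, a group picked after the data were seen, the sums were 495 and 673 CPM and the log2 ratio was -0.44 (-0.59 to -0.29). That choice requires a value above 0 in each small Bbs8 WT set, and the median log2 ratio over all 3737 genes of this kind was -0.05, against 0.18 over the 8776 genes with at least 50 UMIs.

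**Figure D2:**
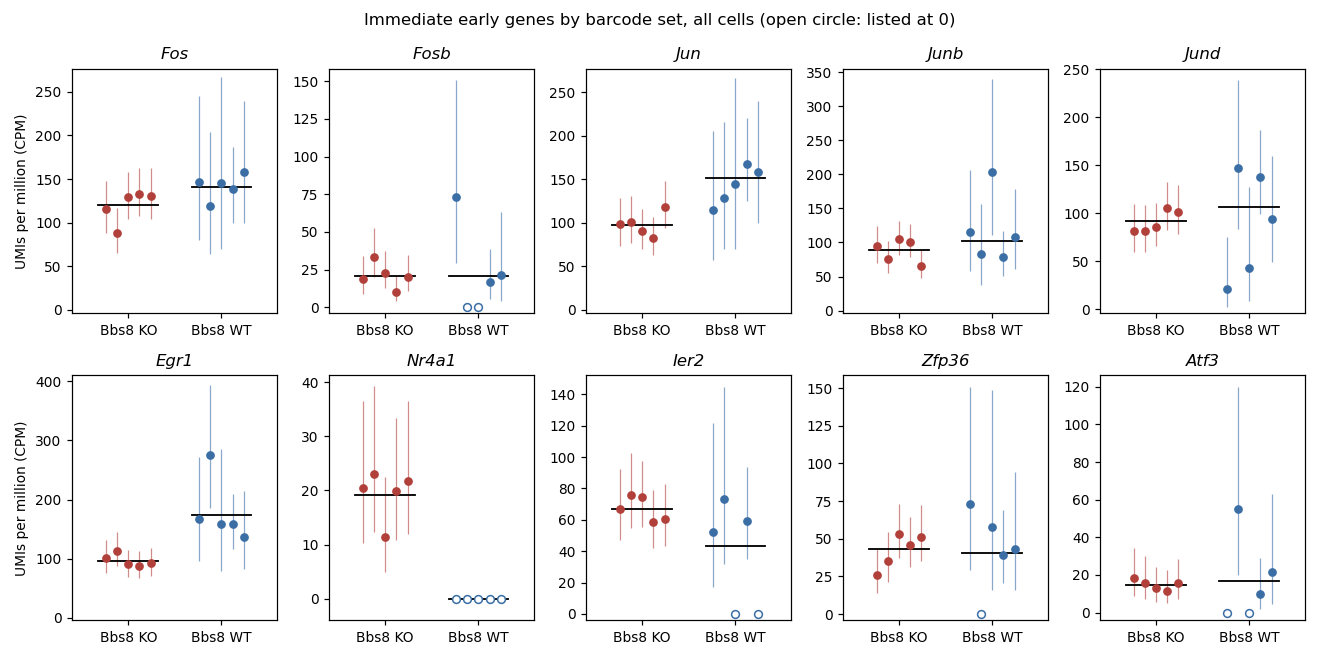
Level of each member in CPM (vertical axis) in the 5 Bbs8 KO (red) and 5 Bbs8 WT (blue) barcode sets, with 95% Poisson intervals, the level over all cells of the genotype as a black line, and open circles, without an interval, for sets listed at 0. The Bbs8 KO sets lie below all Bbs8 WT sets for Egr1, Nr4a1 is listed at 0 in all 5 Bbs8 WT sets, and the sets of the other members overlap.

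A gene was counted as different past the fold when all 5 Bbs8 KO sets lay above, or all below, the 5 Bbs8 WT sets and its log2 ratio was at least 1 in size, among genes with at least 50 UMIs. By separation alone, 1 of the 10 members, Nr4a1, lay above, against 11.5% of all genes, and 1, Egr1, lay below, against 4.92%. With the fold, 1 of 10 was higher (Nr4a1, background 7.98%) and 0 of 10 were lower (background 2.06%). All 60 UMIs of Nr4a1 came from Bbs8 KO, so the gene reached the minimum of 50 UMIs through Bbs8 KO alone, and both its separation and its fold rest on the Bbs8 WT sets being listed at 0. These counts are a description and support no difference in Nr4a1. Among the 5 members listed above 0 in all sets, 0 lay above (background 8.62%) and 1 lay below (background 11.2%). Of the members, 3 had a log2 ratio above 0 and 7 below, with a median of -0.17. TMM scaling moves the CPM ratio of every gene by the same log2 shift of -0.15, which alone takes Zfp36 from 0.08 to -0.05. Of the members, 5 changed sign under at least 1 alternative (Fosb, Junb, Jund, Zfp36 and Atf3), and their signs are not settled.

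Egr1 (ENSMUSG00000038418, chromosome 18, 34859823 to 34864984, plus strand), a zinc finger factor induced by growth factor signalling through serum response factor, had the most UMIs of any member in Bbs8 WT, 124. Its levels in the Bbs8 KO sets were 100.3, 113, 90.2, 88.4 and 92.0 CPM. Those in the Bbs8 WT sets were 167, 276, 159, 158 and 137 CPM, so the groups did not overlap and the set WT3_p2 stood well above the others. Over all cells, Egr1 was at 96.1 CPM in Bbs8 KO cells, against 173 CPM in Bbs8 WT. The log2 ratio of -0.82 (-1.16 to -0.54) was short of the fold. It was -0.66 without WT3_p2. With the same class weights in both genotypes it was -0.57 (-0.89 to -0.25). With every cell thinned to 150 UMIs, the log2 ratio was -0.50 (-1.05 to 0.03).

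Jun (ENSMUSG00000052684, a gene of 1 exon on chromosome 4, 95049034 to 95052222, minus strand) codes for a partner of the Fos proteins in AP-1. It was at 98.5, 101, 90.2, 82.7 and 119 CPM in the Bbs8 KO sets. In the Bbs8 WT sets it was at 115, 129, 145, 168 and 158 CPM, and the highest Bbs8 KO set lay above the lowest Bbs8 WT set. Those sets, KO6_p3 and WT3_p1, bear different codes. Among sets that share a code, Jun was lower in every Bbs8 KO set. It was at 90.2 against 115 CPM in p1, and at 98.5 and 82.7 against 129 and 168 CPM in p2. In p3 it was at 101 and 119 against 145 and 158 CPM. Over all cells the log2 ratio was -0.60 (-0.95 to -0.30), and -0.33 (-0.66 to -0.01) with the same class weights. Fos (ENSMUSG00000021250, chromosome 12, 85473890 to 85477273, plus strand), whose product binds DNA as a dimer with a Jun protein, was at 115, 88.4, 129, 133 and 131 CPM in Bbs8 KO and at 146, 119, 145, 138 and 158 CPM in Bbs8 WT. Its log2 ratio was -0.22 (-0.55 to 0.10), and the sets overlapped, also within the code p2 (133 CPM in KO6_p2 and 119 CPM in WT3_p2). The difference in Fos was within counting error.

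The ratios of the other AP-1 subunits were within counting error too. Junb, which is made with Fos after a stimulus, ranged from 65.5 to 104.5 CPM in Bbs8 KO and from 79.0 to 203 CPM in Bbs8 WT (log2 ratio -0.19, -0.57 to 0.20). Jund, the subunit that cells make without a stimulus, ranged from 81.4 to 106 CPM in Bbs8 KO. Its Bbs8 WT sets spread widely, from 20.9 to 147 CPM, and the log2 ratio was -0.20 (-0.58 to 0.18). Fosb was at 20.7 CPM in Bbs8 KO cells and at 21.0 CPM in Bbs8 WT cells, with 65 and 15 UMIs (log2 ratio -0.02, -0.85 to 0.90).

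Nr4a1 (Nur77; ENSMUSG00000023034, chromosome 15, 101254269 to 101274795, plus strand) codes for a nuclear receptor that T and B cells make within an hour of antigen receptor signalling. It had 11, 13, 8, 14 and 14 UMIs in the Bbs8 KO sets, which are 20.4, 23.0, 11.5, 19.97 and 21.8 CPM. The 60 UMIs lay in 54 cells. All 5 Bbs8 WT sets were listed at 0. The log2 ratio of 2.27 became 4.33 when 1 CPM was added in place of 5 CPM, and 0.97 when 20 CPM were added. If 2 cells with 1 UMI each had been removed from every Bbs8 WT set, its level there would be 14.0 CPM and the log2 ratio 0.34. Taken as listed, the counts gave a plain log2 ratio of at least 1.84 by the 95% interval, and the ratio was 2.17 with the same class weights. The size of a difference in Nr4a1 thus depends on whether UMIs were set to 0 in Bbs8 WT, which these data do not show. Of the 1363 other genes with 50 to 70 UMIs in Bbs8 KO, 95 (6.97%) were likewise listed at 0 in all 5 Bbs8 WT sets, and the median such gene was listed at 0 in 3 of them.

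Ier2 (ENSMUSG00000053560, a gene of 1 exon on chromosome 8, 84661331 to 84662852, minus strand) was the member with the highest log2 ratio among those with UMIs in both genotypes. It was at 66.9, 76.1, 74.4, 58.5 and 60.8 CPM in the Bbs8 KO sets. In Bbs8 WT, 3 sets were at 52.3, 73.5 and 59.3 CPM, within or just below the Bbs8 KO range, and WT3_p3 and WT4_p3 were listed at 0. The log2 ratio was 0.58 (0.08 to 1.23), and 0.42 with 2 UMIs added for each set at 0. It was 0.30 without the set WT4_p3 and 0.98 without WT4_p2, the lowest and highest values when single sets were left out. With the same class weights in both genotypes it was 0.76 (0.19 to 1.33), and in stromal cells 0.13 (-0.72 to 1.07).

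Zfp36, whose product removes mRNAs with AU-rich ends, was at 43.3 and 40.5 CPM in Bbs8 KO and Bbs8 WT (log2 ratio 0.08, -0.49 to 0.73). Atf3, a repressor of the CREB family, was at 14.6 and 16.8 CPM on 46 and 12 UMIs (log2 ratio -0.15, -1.14 to 0.86). In GENCODE, Zfp36, Jun and Jund overlap an antisense gene, and on the other strand Junb overlaps Prdx2 and Atf3 the misc_RNA gene Gm24748. Reads of such pairs cannot be told apart unless strand was used in counting, which was not stated.

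**Figure D3:**
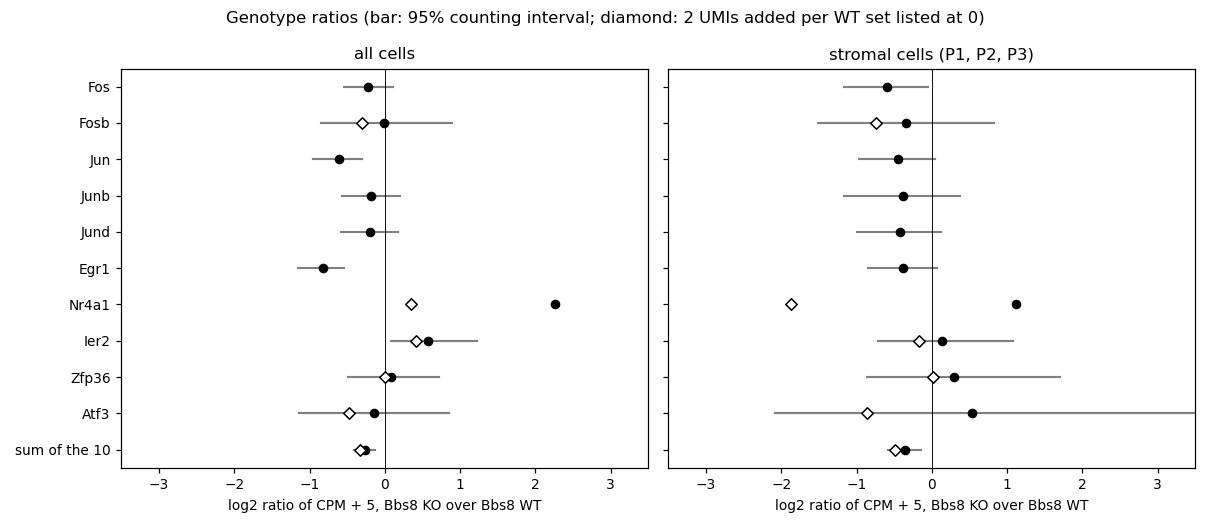
log2 ratio of CPM + 5, Bbs8 KO over Bbs8 WT (horizontal axis), of each member and their sum over all cells (left) and stromal cells (right). Black points are the ratios, grey bars the 95% counting intervals (ended at the plot edge, and not drawn where Bbs8 WT had no UMI), and white diamonds the ratios with 2 UMIs added per Bbs8 WT set listed at 0, all of them placed in stromal cells on the right. Over all cells only the bars of Jun, Egr1, Ier2 and the sum lie off 0, and the diamond of Nr4a1 lies at 0.34.

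Cell classes were rebuilt by clustering without these genes and are named from markers alone. Stromal cells made up 3 classes that follow the adipocyte progenitor types of the study. Among their leading genes were Pi16 and Sema3c in P1-like cells, Col15a1 and Lpl in P2-like cells, and F3 and Gdf10 in P3-like cells. The class called pericyte-like led with Rgs5, Notch3 and Abcc9 but also with the smooth muscle genes Myh11, Acta2, Tagln and Mylk. It may thus hold vascular smooth muscle cells beside pericytes, which were not separated. An unnamed cluster 0, with 2000 Bbs8 KO and 303 Bbs8 WT cells, and 2 smaller ones met no marker list. Cluster 13 met the stromal list but stayed unnamed. Its leading genes held a plasma cell marker, Sdc1, and no marker of the stromal lists, so the 3 types were not scored in it. Its cells had a median of 681 UMIs and were, at the median, at 2.61 times the median of their set. Single cells held too few UMIs to describe members cell by cell. After thinning to 150 UMIs, 8.60% of 8457 Bbs8 KO cells (8.01% to 9.21%) and 10.2% of 1901 Bbs8 WT cells (8.88% to 11.7%) held a UMI of at least 1 member, and 0.45% and 0.42% held UMIs of 2 or more members. Thinning left out 528 Bbs8 KO and 28 Bbs8 WT cells. Without thinning the shares with at least 1 member were 16.8% and 18.9%. Summed counts per class were therefore compared, with the genotypes together.

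The members were unevenly spread over the classes. With the genotypes pooled and among the named classes, their sum was highest in P2-like cells, at 972 CPM (890 to 1060, 514 UMIs), followed by macrophage-like cells at 928 CPM (825 to 1041) and endothelial-like cells at 812 CPM (697 to 940). Cluster 13 was at 858 CPM (678 to 1071, 78 UMIs). Within Bbs8 KO, macrophage-like cells were at 878 CPM and P2-like cells at 865 CPM, and within Bbs8 WT at 1173 and 1227 CPM, so the order of these classes depended on the genotype. In P1-like cells it was 497 CPM (422 to 582, 156 UMIs). The log2 ratio of P2-like over P1-like cells was 0.96 (0.71 to 1.23). P2-like cells were above P1-like cells in each genotype, with 865 against 495 CPM in Bbs8 KO and 1227 against 505 CPM in Bbs8 WT. Intervals of classes next to each other in the order overlapped for the sum, so the order holds only between classes far apart.

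Egr1 gave the most UMIs of any member in P2-like cells. It was at 253 CPM in P2-like cells (212 to 300, 134 UMIs) and at 76.5 CPM in P1-like cells (49.0 to 114), with B-like cells lowest at 23.8 CPM (11.9 to 42.7). Cluster 13 had a still higher level of Egr1, at 341 CPM (232 to 484, 31 UMIs). Fos was also higher in P2-like than in P1-like cells, at 178 CPM (144 to 218) against 41.5 CPM (22.1 to 70.9). Fos was highest in macrophage-like cells, at 234 CPM (184 to 294), and next in pericyte-like cells, at 200.3 CPM (134 to 288). Macrophage-like cells were highest for Fos in both genotypes (206 and 373 CPM), but next came pericyte-like cells in Bbs8 KO (205 CPM) and P2-like cells in Bbs8 WT (263 CPM). Junb followed Fos among the stromal cells, with 92.7 CPM (68.5 to 122) in P2-like and 25.5 CPM (11.01 to 50.3) in P1-like cells, and among the named classes was highest in macrophage-like cells at 155 CPM (115 to 205).

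Jund and Jun had other orders. Among the named classes Jund was highest in P1-like cells, at 159 CPM (118 to 210, 50 UMIs), and ran from 62.2 to 117 CPM in the others. The unnamed clusters ran from 52.7 to 187 CPM, the highest being cluster 14 on 4 UMIs. By genotype, P1-like cells were highest in Bbs8 KO (158 CPM) and second to P3-like cells in Bbs8 WT (164 and 171 CPM, 14 and 8 UMIs). Jun was highest in endothelial-like cells, at 260 CPM (197 to 337), and was so in both genotypes (239 and 347 CPM). Among the named classes Jun was lowest in lymphocytes, at 32.4 CPM (18.2 to 53.5) in T-like and 43.4 CPM (26.5 to 67.0) in B-like cells. The unnamed cluster 14 had 0 UMIs of Jun, with an upper limit of 173 CPM. Fosb gave 1 to 19 UMIs in the classes where it was found, too few to order them. In the same T-like and B-like cells Fos was at 160.0 and 117 CPM and Junb at 102 and 113 CPM, inside the range of the other classes.

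Of the 60 UMIs of Nr4a1, 4 lay in the named stromal classes. Over Bbs8 KO cells, which held all of its UMIs, pericyte-like cells had 10 (85.5 CPM, 41.0 to 157), B-like cells 16 (37.2 CPM, 21.2 to 60.3) and T-like cells 11 (25.7 CPM, 12.8 to 46.0). P2-like, P3-like, macrophage-like and mitotic-like cells and cluster 13 had 2 each, which made 24.4 CPM (2.95 to 88.1) in P3-like cells, 30.3 CPM (3.67 to 109) in mitotic-like cells and 28.2 CPM (3.42 to 102) in cluster 13. Cluster 5 had 3 (22.8 CPM, 4.70 to 66.6), endothelial-like cells 3, epithelial-like cells 1 and cluster 0 had 6. The intervals of P3-like and mitotic-like cells and of clusters 5 and 13 overlapped that of T-like cells, so these levels have no order. P1-like and monocyte-like cells of Bbs8 KO had 0, with exact 95% upper limits of 16.2 and 22.6 CPM. The interval of pericyte-like cells overlapped that of B-like cells and did not overlap those of P2-like (0.65 to 19.4 CPM) or macrophage-like cells (0.92 to 27.6 CPM). With the genotypes pooled, Atf3 was highest in monocyte-like cells, at 72.9 CPM (41.7 to 118, 16 UMIs), above its 7.56 CPM (2.06 to 19.4) in P2-like and 2.16 CPM (0.055 to 12.05) in T-like cells. In Bbs8 WT, pericyte-like cells were above monocyte-like cells for Atf3 (108 and 71.7 CPM), on 3 and 4 UMIs. Ier2 was at 81.3 CPM (58.8 to 109.5) in P2-like and 38.3 CPM (19.8 to 66.8) in P1-like cells, with overlapping intervals. Zfp36, also pooled, was highest in macrophage-like cells, at 76.0 CPM (48.7 to 113), and at 15.9 CPM (5.18 to 37.2) in P1-like cells. In Bbs8 KO, its level was 73.4 CPM in monocyte-like and 72.5 CPM in macrophage-like cells.

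**Figure D4:**
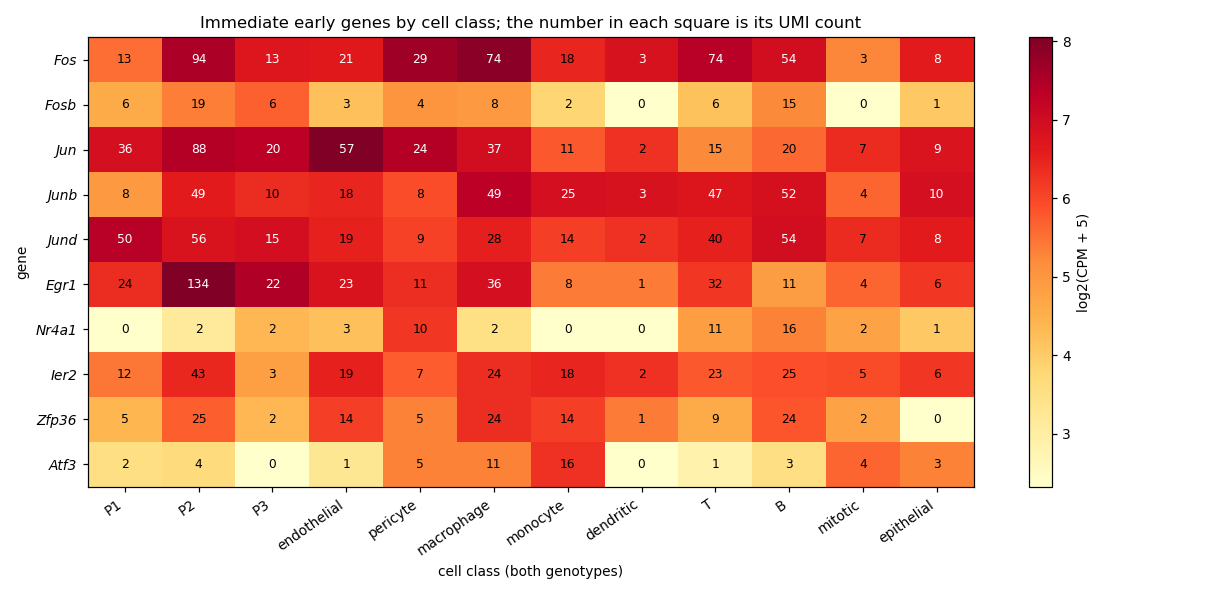
Level of each member (rows) in each named cell class (columns), both genotypes together, as log2(CPM + 5) in colour with the UMI count printed in each square. Egr1 is highest in P2 (134 UMIs), Jun in endothelial (57 UMIs), Jund in P1 (50 UMIs), Fos in macrophage (74 UMIs), Atf3 in monocyte (16 UMIs) and Nr4a1 in pericyte (10 UMIs).

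Between genotypes, the stromal cells followed the direction of all cells. Their summed members were at 724 CPM in Bbs8 KO (495 UMIs) and at 932 CPM in Bbs8 WT (268 UMIs). The log2 ratio was -0.36 (-0.58 to -0.14), while the sets overlapped at 603 to 806 and 616 to 1127 CPM. Of 6 members with at least 50 UMIs there, 0 had separated sets above (background 3.95%) or below (2.38%), and 0 passed the fold in either direction (2.7% higher and 1.1% lower among 3190 genes). The median of these 6 members was -0.40, against 0.02 over all genes tested. Fos was at 107 and 163 CPM (log2 ratio -0.59, -1.16 to -0.05) and Egr1 at 170 and 223 CPM (-0.38, -0.84 to 0.07, or -0.16 without WT3_p2). Nr4a1 gave 4 UMIs in stromal Bbs8 KO cells.

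Among the stromal classes, the ratio of the sum was furthest from 0 in P2-like cells. Their sum was 865 CPM in Bbs8 KO against 1227 CPM in Bbs8 WT (log2 ratio -0.50, -0.77 to -0.24), with sets at 773 to 941 and 672 to 1513 CPM that overlapped. Fos was at 142 and 263 CPM in these cells (-0.87, -1.51 to -0.27), Jun at 137 and 238 CPM (-0.78, -1.44 to -0.15) and Egr1 at 222 and 328 CPM (-0.55, -1.08 to -0.03). In P1-like and P3-like cells the sums had log2 ratios of -0.03 (-0.55 to 0.51) and -0.01 (-0.65 to 0.64). Whether the genotype ratio differed between these classes was not tested. The stromal log2 ratio of Jun was -0.45, and 0.10 when the members were kept among the features used for clustering.

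Blood and vascular cells gave ratios in both directions. Macrophage-like cells were at 878 and 1173 CPM for the sum (log2 ratio -0.42, -0.83 to 0.01), with Fos at 206 and 373 CPM (-0.84, -1.62 to -0.04). T-like cells were at 561 and 522 CPM (0.10, -0.59 to 0.88). B-like cells were at 622 CPM in Bbs8 KO against 196 CPM in Bbs8 WT, on 268 and 6 UMIs (1.64, 0.52 to 3.13). The Bbs8 WT sets held 103 B-like cells in all, and the class-level ratio is open to the same filter. In the extreme case where every UMI that may be missing from the Bbs8 WT sets came from B-like cells, which would make 30 UMIs of 6, the log2 ratio would be -0.65. Fos and Junb, which were listed above 0 in all sets over all cells, had 54 and 52 UMIs in Bbs8 KO B-like cells and 0 in those of Bbs8 WT. Endothelial-like cells were at 829 and 740 CPM (0.16, -0.40 to 0.76) and pericyte-like cells at 778 and 755 CPM (0.04, -0.65 to 0.80).

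Transcripts of other cell types differed with genotype in the same classes. Dcn, a stromal transcript, was at 124 CPM in T-like cells of Bbs8 KO and at 551 CPM in those of Bbs8 WT, and at 132 and 654 CPM in B-like cells. Col3a1, also stromal, went the other way in macrophage-like cells, at 2588 CPM in Bbs8 KO against 1509 CPM in Bbs8 WT. Csn2, a milk protein transcript, had 94 UMIs in epithelial-like cells of Bbs8 WT and 0 in those of Bbs8 KO. Igkc, a B cell transcript, was at 319 and 52.2 CPM in stromal cells. Within stromal cells, Dcn itself was at 5373 and 8369 CPM. Their part in the ratios of the members was not tested.

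**Figure D5:**
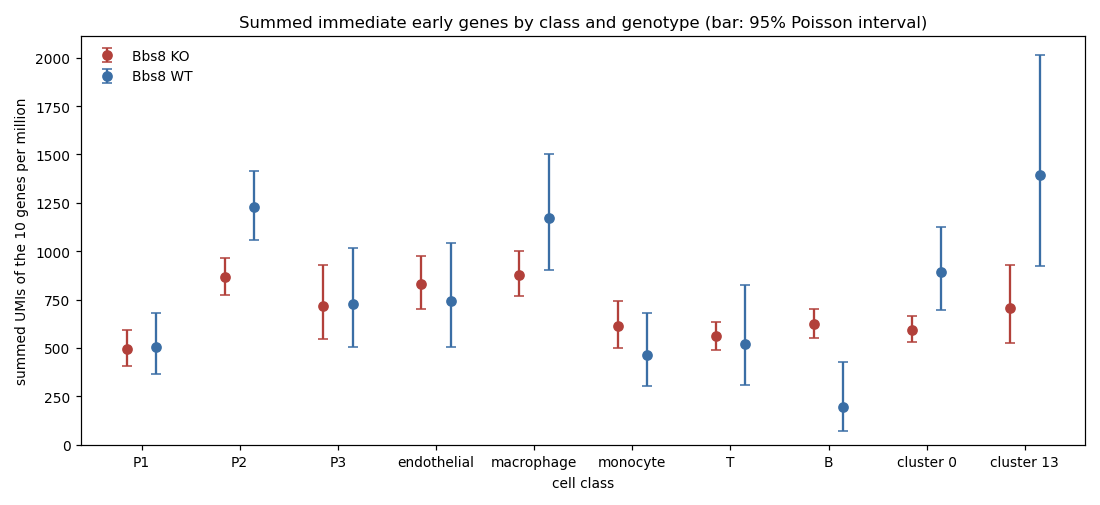
Summed UMIs of the 10 members in CPM (vertical axis) in 10 classes (horizontal axis) for Bbs8 KO (red) and Bbs8 WT (blue), with 95% Poisson intervals. Intervals of the genotypes are apart in P2 (865 and 1227 CPM), B (622 and 196 CPM) and the unnamed cluster 0 (594 and 893 CPM), and overlap in the other 7 classes.

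Other genes of the same response gave ratios on both sides of 0. Of 43 further immediate early genes, 33 had at least 50 UMIs over all cells, and 27 of these had a log2 ratio above 0 and 6 below, with a median of 0.53. Of all 8776 genes tested, 61.7% lay above 0, and 73.5% (median 0.40) of those listed at 0 in 1 or more sets. Past the fold, 8 of the 33 were higher and 1 lower in Bbs8 KO, against 7.98% and 2.06% of all genes. All 8 were listed at 0 in 1 or more Bbs8 WT sets. The Bbs8 KO cells alone brought all 8 to 50 UMIs, and 4 of them had no UMI in Bbs8 WT. These ratios do not allow for the mix of cells, in which T-like and B-like cells together made up 27.6% of all Bbs8 KO cells but 12.3% in Bbs8 WT. The highest were Dusp2, a phosphatase of activated MAP kinases (133 UMIs in Bbs8 KO, listed at 0 in all Bbs8 WT sets), and Tnfaip3, an inhibitor of NF-kB (115 UMIs, likewise). The lowest were Phlda1 (34.0 and 90.8 CPM, log2 ratio -1.30, but 0.95 in stromal cells alone) and Cebpb, a factor of early adipogenesis (12.4 and 37.7 CPM, -1.30). Over the 11 listed above 0 in all sets the median was 0.09. In stromal cells, 12 could be compared, with a median of 0.51. The highest there were Egr2, a factor related to Egr1 (120 and 34.8 CPM, 1.65, 0.84 to 2.90), and Sgk1 (87.8 and 38.2 CPM, 1.10), and the lowest were Klf4 (-0.46) and Zfp36l1 (-0.33). Egr2 was listed at 0 in 1 or more Bbs8 WT sets.

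Genes of a heat shock list, only some of which also answer handling of cells, had 4 log2 ratios above 0 and 9 below. These were the 13 with enough UMIs (median -0.34). Of them, 0 passed the fold, against 7.98% of all genes higher and 2.06% lower. By separation alone, 2 of the 13 (Hspa5 and Hsph1) had Bbs8 KO sets below all Bbs8 WT sets, against 4.92% of all genes. The lowest were Hspb1 (-0.84) and Hspa5 (987 and 1676 CPM, -0.76, -0.86 to -0.67), and the highest Hspa8 (0.67) and Dnaja1 (0.11). Of 20 kinases and factors that act before the immediate early genes, 16 lay above 0 and 4 below (median 0.40). Mef2c was highest (277 and 103 CPM, 1.38), followed by Mef2d (0.94), while Srf (-0.39) and Map2k2 (-0.26) were lowest. Mef2c was the 1 gene of 20 past the fold, against 7.98% of all genes. It was also the 1 of 10 in stromal cells, against 2.7% there. Its stromal levels were 105 and 17.4 CPM on 72 and 5 UMIs (2.30, 1.31 to 4.26). The ratios over all cells do not allow for the mix of cells. Whether transcripts of other cell types add to the stromal ratio of Mef2c was not tested. In stromal cells, 8 heat shock genes had a median of -0.02 (4 above 0, 4 below), from Hsph1 (-1.18) and Hspa5 (-0.64) to Hspb8 (0.42) and Dnaja1 (0.44), and 10 kinases and factors a median of 0.20 (7 above 0, 3 below). Of 9 mRNAs that Zfp36 is known to destabilise, 2 could be compared, Vegfa (20.4 and 37.7 CPM, -0.75) and Ccl2 (15.3 and 5.59 CPM, 0.94).

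Over the 26 sums of 13 classes in both genotypes, the pattern most like that of Nr4a1 among 3653 genes was that of Rps13-ps1 (Pearson r of log2(CPM + 5) 0.78), followed by Rpsa-ps10 (0.76), Rps15a-ps8 (0.75), Myl12a (0.68) and mt-Nd4 (0.68). The points share libraries and depth, and all points of Nr4a1 in Bbs8 WT were at 0. Rps13-ps1 was itself at 141 CPM in Bbs8 KO and listed at 0 in Bbs8 WT. Most like the summed members were 9530068E07Rik (0.84), Ddx50 (0.82), B230219D22Rik (0.81), Zfp652 (0.81) and Atxn7l3b (0.80). Among the members themselves, the pairs most alike were Fos and Egr1 (0.66), Junb and Egr1 (0.65) and Fos and Junb (0.61), and Egr1 and Atf3 were least alike (-0.27).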

How the data were processed

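The authors deposited a filtered table of UMI counts, as whole numbers. Per the labels and the study's methods, they used bcl2fastq 2.20, dropSeqPipe with STAR, mm10 and GENCODE vM16, evened depth with scuttle, and kept cells by gene number and mitochondrial share. No source says at which of these steps the table was saved. All columns were assigned to a genotype by name (0 unmapped). The members and lists were chosen with earlier results of these data known.

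Seurat 5.3.0 under R 4.3.3 aligned the barcode sets by anchors and clustered them on 2000 variable features less the members and listed genes, 30 dimensions and resolution 0.8. Clusters of at least 60 cells were named when the mean log2 fold of a marker list (pseudocount 20 CPM) and at least 3 markers exceeded 0.5. A cluster stayed unnamed when its leading genes held more markers of another list than of its own. Doublets were kept. Levels are summed UMIs in CPM with exact Poisson 95% intervals, and ratios use 5 CPM. Shares have Clopper-Pearson intervals. The fold rule was tried on simulated counts that held no minimum of 3 cells per set. That trial does not bear on genes listed at 0. Genes of other lists were named as the 2 highest and 2 lowest log2 ratios. Gene positions are from GENCODE vM21. Alternatives included TMM (edgeR 4.0.16) and DESeq2 1.42.0 factors on genotype sums, other cell filters, pseudocounts and clusterings.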

Additional observations from a re-analysis of the deposited data

Results flagged for a closer look

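There were 44 groups of 5 barcode sets (each member and the sum, by genotype, in all cells and in stromal cells). By Dixon's criterion, 5 sets stood far from the other sets of their group. Its nominal rate of 1 in 20 assumes independent groups of normal values and gives no chance value here. The groups overlap, many counts are low, and a group with all sets at 0 can yield no such set. Egr1 was at 276 CPM in WT3_p2 over all cells, and at 137 to 167 CPM in the other Bbs8 WT sets. Nr4a1 was at 11.5 CPM in KO6_p1, and at 19.97 to 23.0 CPM in the other Bbs8 KO sets. In stromal cells, Fosb was at 171 CPM in WT3_p1 on 6 UMIs, Ier2 was at 101 CPM in KO6_p1, and Atf3 was at 14.8 CPM in WT4_p3 on 1 UMI, with the 4 other Bbs8 WT sets at 0.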

How the results depend on the processing

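The log2 ratio of the summed members was below 0 under every alternative run over all cells, in stromal cells and with the same class weights in both genotypes. Over all cells it was -0.41 with TMM factors and -0.43 with DESeq2 size factors, which lowered the median of all genes from 0.18 to 0.04 and 0.03 (574 higher and 255 lower or 562 and 263 calls, against 700 and 181). With only the 5 members listed above 0 in all sets, an alternative chosen after seeing the data, it was -0.44 over all cells and -0.34 with the same class weights. In stromal cells it was -0.60 with each cell thinned to 150 UMIs. Leaving out each barcode set gave -0.29 to -0.24 over all cells, -0.42 to -0.30 in stromal cells, -0.20 to -0.15 with the same class weights and 0.87 to 1.07 for P2-like over P1-like cells. The count of members past the fold, 1 (Nr4a1), was 0 with a pseudocount of 20 CPM, with cells of at least 200 genes (38 UMIs left), with thinned cells (21), without the 6% of cells with the most UMIs (43), with a minimum of 200 UMIs and with 2 UMIs added for each gene and set listed at 0, an alternative also chosen after seeing the data. It ran from 0 to 1 when a set was left out, and was 0 without KO5_p2, KO5_p3, KO6_p2 or KO6_p3, where Nr4a1 held 46 to 49 UMIs, under the minimum of 50. The log2 ratio of Nr4a1 in stromal cells turned to -1.87 with 2 UMIs added per set, a turn fixed by placing all 10 in stromal cells. With the same class weights, the ratio was -0.04 without integration, and its interval reached above 0 there and with cells of at least 200 genes, with thinned cells, with all variable features and without WT3_p2 or WT4_p2.

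No paired analysis was possible because the codes in the column names could not be tied to the replicate numbers in the labels. That bars pairs by replicate number only. Sets of both genotypes that share a code from p1 to p3 can be compared by level, as given for Jun and Fos. What the code stands for was not stated, and no ratio was taken within codes. Over all cells, the log2 ratio of Fosb ran up to 0.52 (without WT3_p1), of Junb to 0.07 (cells of at least 200 genes), of Jund to 0.15 (without WT4_p2) and of Atf3 to 0.40 (without WT3_p2), and that of Zfp36 down to -0.15 (cells of at least 200 genes). TMM and DESeq2 factors, the mean of sets and the added UMIs were not applied to the values with the same class weights or to P2-like over P1-like cells. No difference had a replicate check. Members with few UMIs in a class have wide intervals there, and at a median of 255 UMIs per cell, a member's absence from a cell carries little weight.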
